A study of Homo sapiens with 2 samples.

Results

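Chromosome arm 6q is the long arm of human chromosome 6, read here as the series of genes along it in SK-LMS-1 and SK-UT-1, a pair of leiomyosarcoma lines. A gene was a member if all of its listed exons lay on chromosome 6, its first listed start lay above position 61000000 of hg38 and it had at least 10 counts in either library. The rule took 300 of the 562 genes that the count table places on the arm, out of 13969 genes of the whole table that reach the same count. The members were chosen by the same counts that make the ratios, and the arm was picked with earlier results of these libraries known, so all values below are descriptions without a test.

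Both lines are established cultures of human leiomyosarcoma, a malignant tumour with features of smooth muscle. Each was treated with the solvent DMSO and sequenced once from total RNA, as part of a study of SUV39H2 and PARP inhibition in uterine leiomyosarcoma. With 1 library per line no difference has a replicate check. Each library pools a culture, so fewer cells with a transcript and less RNA per cell cannot be told apart.

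Markers of the labelled tissue were present in part. Of 8 smooth muscle markers, 4 reached 10 counts in SK-LMS-1 and 5 in the other line. TAGLN (405 and 43 counts in SK-LMS-1 and SK-UT-1), CNN1 (64 and 20) and ACTA2 (69 and 435) reached it in both. ACTG2 (39 and 0) reached it in SK-LMS-1 alone, and DES (1 and 26) and LMOD1 (4 and 10) in SK-UT-1 alone. The smooth muscle myosin MYH11 had 5 and 2 counts and the coactivator MYOCD 0 in both. The summed level of the 8 was 89.6 and 66.6 CPM, where CPM are counts relative to library size. Most of it was TAGLN in SK-LMS-1 (61.81 CPM) and ACTA2 in SK-UT-1 (54.05 CPM). No leukocyte or endothelial marker reached 10 counts, and PTPRC and VWF were at 0 in both. Of 4 epithelial markers, KRT8 and KRT19 reached 10 counts in both, EPCAM had 1 and 9 counts and CDH1 0 and 4, and KRT19 had 65 and 155. The part of these cell features in the ratios of 6q was not tested. In all, SK-LMS-1 held 6906280 counts and SK-UT-1 7635850.

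Ordering the genes of an arm by position shows whether neighbours share a ratio of RNA between lines or differ one by one. The arm 6q holds general housekeeping genes, such as EEF1A1 for translation elongation, next to genes that mark particular cell states, such as the T-box factor TBX18 of mesenchymal and smooth muscle progenitors, the laminin chain LAMA4 of vessel and muscle basement membranes, and the gap junction protein GJA1 (connexin 43). Parts of 6q are known as frequent sites of deletion in tumours, and the tumour suppressor candidates TNFAIP3, PRDM1, LATS1 and ARID1B lie on it.

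The start regions of 6 members are shown because these genes had few or no counts in 1 line, or led the genes of their direction, and because their starts differ widely in CG content. CG pairs are the sites of DNA methylation in human promoters, which is background here, since methylation was not measured. Each sequence runs from 250 bases before to 50 bases after the annotated gene start, read on the gene's strand, from RefSeq on GRCh38.p14. Capitals mark every CG pair, a motif that reads the same on both strands. TBX18 (chr6:84764549-84764848, minus strand, 21 CG pairs), ME1 (chr6:83431002-83431301, minus, 30), MYCT1 (chr6:152697696-152697995, plus, 2) and LAMA4 (chr6:112254518-112254817, minus, 8) were higher in SK-LMS-1. DDX43 (chr6:73394578-73394877, plus, 21) and GJA1 (chr6:121435396-121435695, plus, 3) were higher in SK-UT-1. Starts with many and with few CG pairs stand in both directions here, which follows from the choice of these 6 genes.
TBX18: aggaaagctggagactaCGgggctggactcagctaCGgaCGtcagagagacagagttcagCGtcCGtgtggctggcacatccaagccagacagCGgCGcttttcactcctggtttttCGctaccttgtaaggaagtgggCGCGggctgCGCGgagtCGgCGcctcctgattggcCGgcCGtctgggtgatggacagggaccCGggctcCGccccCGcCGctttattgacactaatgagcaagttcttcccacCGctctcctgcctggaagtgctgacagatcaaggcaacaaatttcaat
ME1: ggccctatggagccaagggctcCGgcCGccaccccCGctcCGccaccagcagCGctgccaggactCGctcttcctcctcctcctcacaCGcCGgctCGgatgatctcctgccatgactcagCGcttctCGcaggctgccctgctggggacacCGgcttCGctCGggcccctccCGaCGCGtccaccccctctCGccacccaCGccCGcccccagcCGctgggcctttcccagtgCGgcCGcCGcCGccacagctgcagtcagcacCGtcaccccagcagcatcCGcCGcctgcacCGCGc
MYCT1: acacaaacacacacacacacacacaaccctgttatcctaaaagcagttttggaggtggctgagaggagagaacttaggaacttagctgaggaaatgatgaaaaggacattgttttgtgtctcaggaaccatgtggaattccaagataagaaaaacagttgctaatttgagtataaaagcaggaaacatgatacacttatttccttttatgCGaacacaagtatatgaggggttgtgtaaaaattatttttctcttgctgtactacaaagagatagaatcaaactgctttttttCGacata
LAMA4: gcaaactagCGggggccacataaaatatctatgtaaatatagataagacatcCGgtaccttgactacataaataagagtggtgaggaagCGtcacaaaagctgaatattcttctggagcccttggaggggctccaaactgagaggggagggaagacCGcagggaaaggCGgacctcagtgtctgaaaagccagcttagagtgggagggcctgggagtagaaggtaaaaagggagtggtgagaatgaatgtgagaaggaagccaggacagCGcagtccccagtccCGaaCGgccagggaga
DDX43: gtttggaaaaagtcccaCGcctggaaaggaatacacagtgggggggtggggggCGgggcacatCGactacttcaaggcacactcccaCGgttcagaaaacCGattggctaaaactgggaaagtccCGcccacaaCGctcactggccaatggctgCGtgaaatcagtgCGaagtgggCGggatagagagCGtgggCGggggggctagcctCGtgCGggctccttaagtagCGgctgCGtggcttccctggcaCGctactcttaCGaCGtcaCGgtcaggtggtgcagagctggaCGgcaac
GJA1: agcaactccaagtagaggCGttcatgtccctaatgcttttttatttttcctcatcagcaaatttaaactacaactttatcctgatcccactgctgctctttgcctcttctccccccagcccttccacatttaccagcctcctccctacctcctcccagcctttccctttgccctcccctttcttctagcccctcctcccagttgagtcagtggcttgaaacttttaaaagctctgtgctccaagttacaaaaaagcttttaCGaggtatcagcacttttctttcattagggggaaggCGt

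Most members were higher in SK-LMS-1. Levels are TMM-scaled CPM, after scaling both libraries by the trimmed mean of M values. Ratios divide the level in SK-LMS-1 by that in SK-UT-1, and a fold towards a line means that the level is higher there. The median log2 ratio of the 300 members was 0.71, a 1.63-fold higher level in SK-LMS-1, with quartiles of 0.05 and 2.17. Over all 13969 genes the median was -0.01. Of the members, 128 (42.7%) were 2-fold or more towards SK-LMS-1, where 21.1% of all 13969 genes were. At least 2-fold towards SK-UT-1 were 22 members (7.33%), against 18.3% of all genes. The other 150 lay within 2-fold, as did 60.5% of all genes. By any amount, 233 members (77.7%) were higher in SK-LMS-1, against 49.7% of all genes. Among the 150 within 2-fold, 105 (70%) had a log2 ratio above 0, against 46.8% of the 8308 genes outside 6q within 2-fold.

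The median log2 ratio of the members was above 0 at each level of expression. Among the 100 members with the highest mean CPM the median log2 ratio was 0.51, with 30 genes 2-fold or more towards SK-LMS-1 and 3 the other way. In the middle and the lowest 100 the medians were 0.74 and 1.10. The lowest 100 held 16 of the 21 members with 0 counts in SK-UT-1. All genes were not split by level, so these counts have no matching share beside them. Over the 245 members with 10 counts or more in both libraries the median was 0.54, against -0.01 over 11213 such genes elsewhere. At 4-fold, 81 members (27.0%) lay towards SK-LMS-1 but 15 towards SK-UT-1, where 11.7% and 7.49% of all genes were. The arm took 3.39% of the counts of SK-LMS-1 and 2.24% of those of SK-UT-1.

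Set against the other arms, 6q had the second highest median of 41 arms with 20 or more measured genes. The long arm of X was higher, with a median log2 ratio of 1.04 over 294 genes. The rest of chromosome 6 held 313 measured genes with a median of 0.34, of which 100 were 2-fold or more towards SK-LMS-1 and 38 the other way. The long arm of chromosome 1 lay at the other end, with a median of -0.70 over 588 genes. Whether 6q differs from other arms cannot be tested with 1 library per line. Scaling by library totals moved every log2 ratio, and so the median of all genes, by -0.15.

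**Figure D1:**
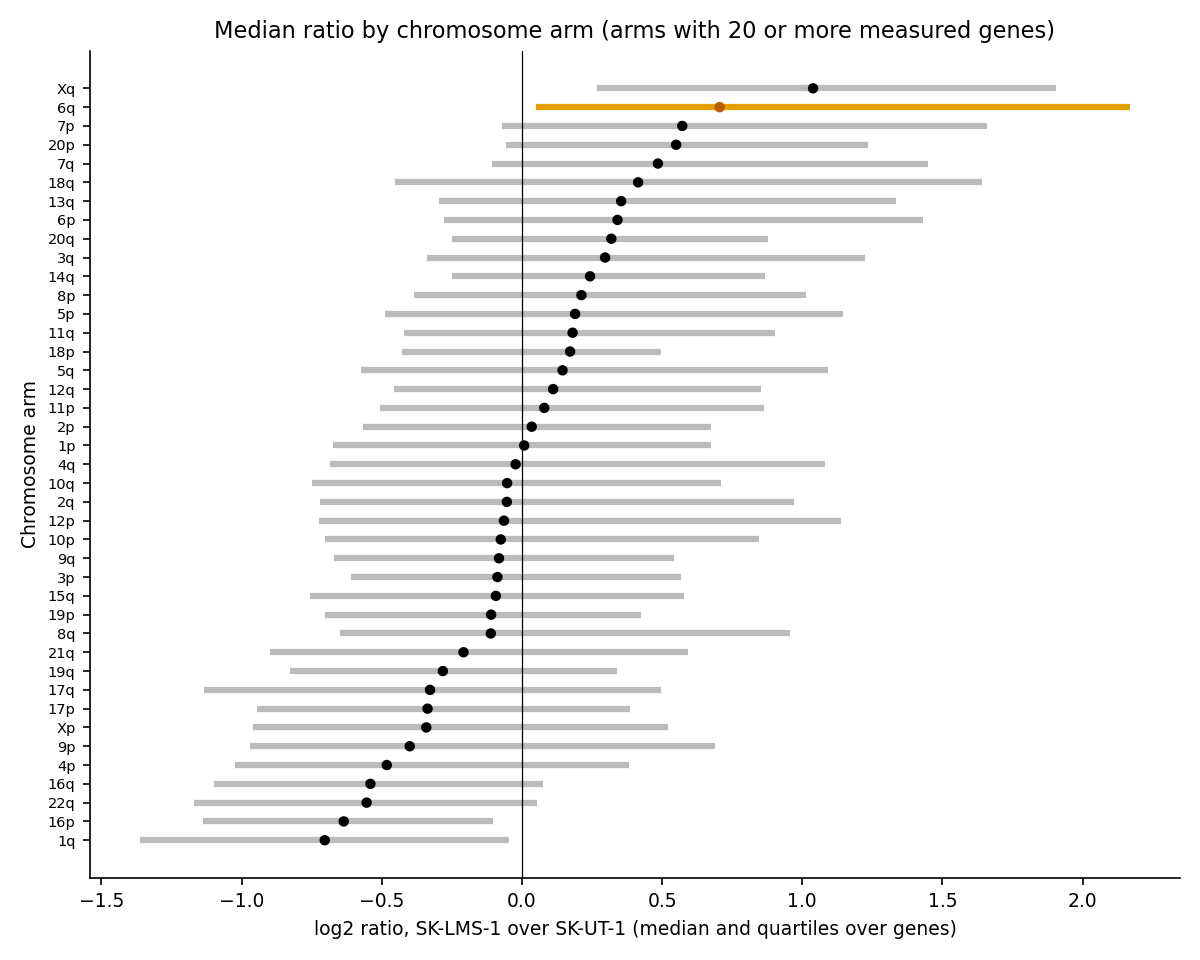
Median log2 ratio (points) and quartiles (bars) over the measured genes of each chromosome arm, on the horizontal axis, with arms ordered by median on the vertical axis. The bar of 6q (orange) has its median at 0.71 and its lower quartile at 0.05, second to Xq at 1.04.

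Along the arm the ratio was above 0 in nearly every window and its size was uneven. In consecutive bins of 5 Mb by gene start, 18 bins held at least 5 members, and all 18 had a median above 0. The bin medians ran from 0.35 (160 to 165 Mb) to 1.66 (80 to 85 Mb). In 5 bins the median log2 ratio was 1 or more, and these lay at 75 to 85, 120 to 125 and 130 to 140 Mb. Of 280 running medians of 21 neighbouring members, 279 were above 0. The lowest was -0.01, centred on RMND1, and the highest 2.20, centred on FAM46A. The longest run of members with a ratio above 0 was 27 genes, from AK9 to RWDD1, and the longest run below 0 was 6 genes of the RAET1 and ULBP cluster.

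**Figure D2:**
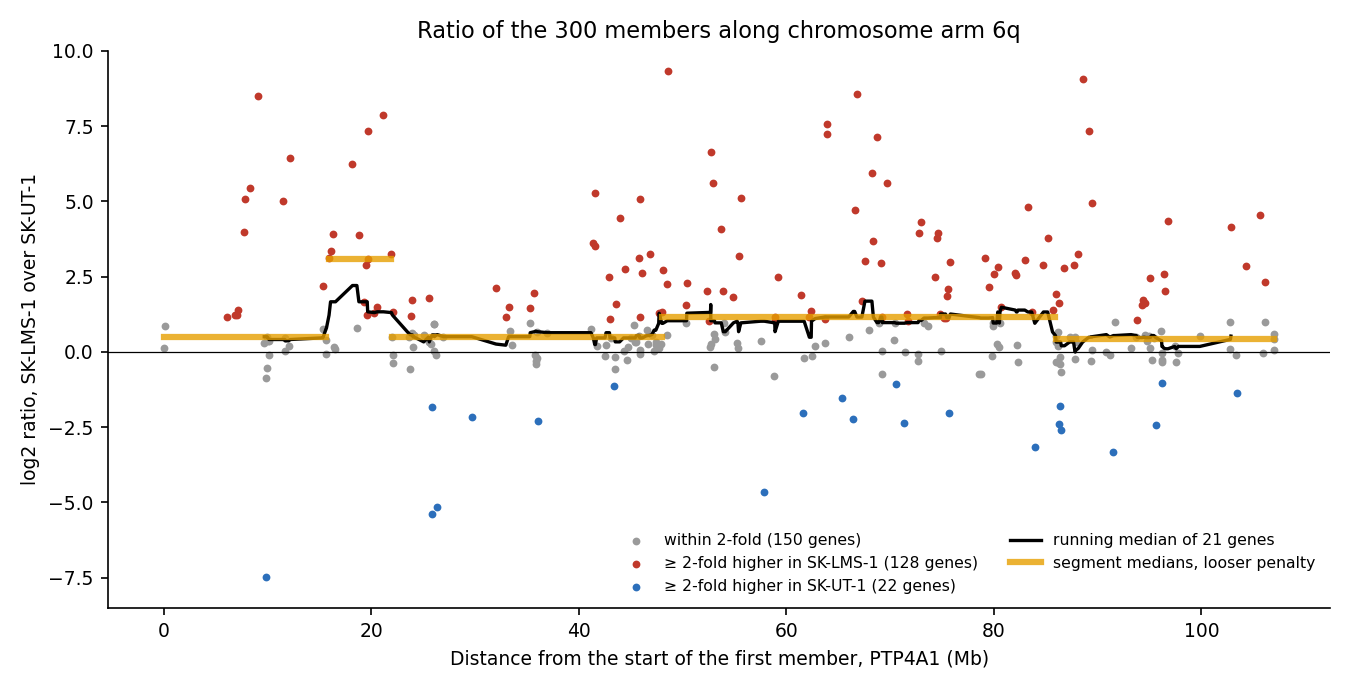
Log2 ratio of each member (vertical axis) against its distance in Mb from the start of PTP4A1, the first member. Red, blue and grey points are the 128, 22 and 150 members higher in SK-LMS-1, higher in SK-UT-1 and within 2-fold. The black running median of 21 members peaks at 2.20, and orange lines give the medians of the 5 segments found with the looser penalty.

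Dividing the arm into segments gave no break under the penalty chosen for it. The method placed breaks where the summed absolute distance from segment medians fell by more than a set penalty (2 log(n) times the spread of neighbouring genes), with ratios capped at 2 and at least 15 genes per segment. All 300 members, from PTP4A1 to PDCD2, then formed 1 segment. This does not show an even ratio, since steps too short or too small for the penalty stay unbroken. With a penalty of 1 log(n), 5 segments were returned, and the genes at their ends are named for that alone. Their median log2 ratios were 0.50 over 27 genes from PTP4A1 to HMGN3-AS1, 3.08 over 17 genes from LCA5 to NT5E, 0.49 over 79 genes from SNX14 to TRAF3IP2-AS1, 1.15 over 108 genes from TRAF3IP2 to TAB2, and 0.42 over 69 genes from PPIL4 to PDCD2. The 4 breaks appeared under the looser penalty only, among all settings tried. The ratios of direct neighbours, capped at 2, had a Pearson's r of 0.22 over 299 pairs, and second neighbours one of -0.00. These pairs of genes share both libraries and are not independent.

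The stretch from LCA5 to NT5E held the largest share of high ratios of the 5, and its members are named here after their values were seen. It spans 79484991 to 85495791 on chromosome 6 of hg38. Of its 17 members, 14 were 2-fold or more towards SK-LMS-1, 3 lay within 2-fold and none was 2-fold towards SK-UT-1, beside 21.1% and 18.3% of all genes. Since the stretch was found from these ratios, its counts only describe it. Without it, a setting chosen after seeing the data, the remaining 283 members had a median of 0.62, with 114 2-fold or more towards SK-LMS-1 and 22 the other way.

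Within this stretch, genes of very different size of ratio lay side by side. TBX18 had 570 counts in SK-LMS-1 but none (0) in SK-UT-1, and set against a floor of 3 counts it was 233-fold higher (lower 95% limit 189). ME1, the cytosolic malic enzyme that supplies NADPH, had 397 and 0 counts, 163-fold against the floor (lower limit 132). NT5E, the ectonucleotidase CD73 that makes adenosine and marks mesenchymal cells, stood at 1753 against 186 CPM, 9.44-fold higher (95% interval 8.94 to 9.97). TTK, the mitotic checkpoint kinase MPS1, stood at 244 and 216 CPM, 1.13-fold (1.06 to 1.21). BCKDHB, a subunit of the enzyme that breaks down branched-chain keto acids, stood at 29.3 and 27.5 CPM, 1.07-fold with an interval that includes 1. TTK and BCKDHB thus lay within 2-fold between ELOVL4 and FAM46A, the members on either side, which had 0 and 7 counts in SK-UT-1. FAM46A, now named TENT5A, a poly(A) polymerase, was 75.1-fold towards SK-LMS-1 (36.1 to 188), at 65.3 against 0.87 CPM. TPBG, a trophoblast glycoprotein, was 14.6-fold higher (10.4 to 21.3), and DOPEY1 7.45-fold (5.69 to 9.88). Of the other members of the stretch, the cilium gene LCA5 had 178 and 25 counts, SH3BGRL2 25 and 1, RWDD2A 62 and 9, and the ubiquitin ligase gene UBE3D 49 and 19. CYB5R4, a reductase, had 191 and 95 counts and CEP162, a centriole protein gene, 324 and 143. IBTK, an inhibitor of BTK kinase, was within 2-fold with 1563 and 1113 counts. So 3 of the 17, TTK, BCKDHB and IBTK, lay within 2-fold. Intervals here and below are exact and cover counting error only.

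**Figure D3:**
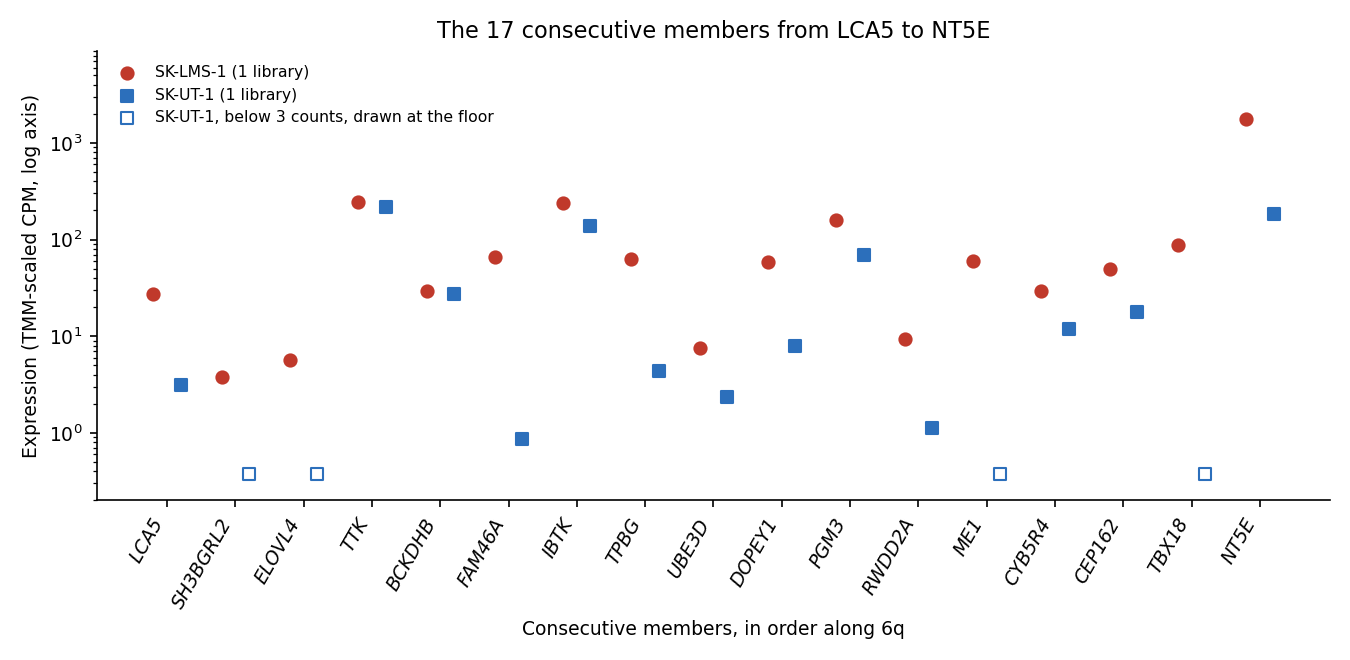
Expression in TMM-scaled CPM (vertical log axis) of the 17 consecutive members from LCA5 to NT5E in SK-LMS-1 (red circles) and SK-UT-1 (blue squares), with open squares for counts below 3, drawn at the floor. TTK and BCKDHB lie close together in both lines, while ME1 and TBX18 have 0 counts in SK-UT-1.

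The 12 largest ratios towards SK-LMS-1, at 10 CPM or more, lay between KCNQ5 and MYCT1, with none nearer to either end of the arm. LAMA4 had 1573 and 3 counts in SK-LMS-1 and SK-UT-1, a ratio of 644 (220.0 to 3126). SYNE1, which encodes the giant nesprin-1 that ties the nucleus to actin, had 7415 and 17 counts, or 1132 and 2.11 CPM, 536-fold higher (334 to 920.2). TMEM200A, a membrane protein gene, had 923 and 2 counts, a ratio of 567 (156 to 4688). All 3 genes had 17 counts or fewer in SK-UT-1. KCNQ5, a voltage-gated potassium channel, was 363-fold higher against the floor (lower limit 294), with 886 and 0 counts. MYCT1, the member next to SYNE1 and on the opposite strand, had 394 and 0 counts, 161-fold higher against the floor (lower limit 131). MOXD1, a monooxygenase-like protein of the secretory pathway, was 139-fold higher (77.7 to 280.1), DSE, which forms dermatan sulfate, 98.8-fold (58.6 to 181), and the actin motor gene MYO6 86.3-fold (54.4 to 146). SOGA3 and KIAA0408 start at the same base and share most of their exons on 1 strand. Their 466 and 368 counts in SK-LMS-1 are therefore not separate measurements, and they had 1 and 0 counts in SK-UT-1.

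Fewer members went the other way. DDX43, a helicase gene of the cancer-testis group, had 0 counts in SK-LMS-1 but 652 in SK-UT-1, 177-fold higher against the floor (lower limit 143). RRAGD, a GTPase of amino acid sensing, had 4 and 207 counts, 42.1-fold higher (16.2 to 156). BACH2, a transcription repressor of lymphocytes, had 3 and 131 counts, a ratio of 35.5 (11.9 to 175). GJA1 was the most abundant gene of this direction per kb of exon, with 34.8 CPM in SK-LMS-1 but 883 in SK-UT-1, 25.4-fold higher (22.2 to 29.1). TIAM2, an exchange factor for RAC, was 9.99-fold higher (5.41 to 20.5) and SAMD5 8.96-fold (4.83 to 18.4), both with 11 counts in SK-LMS-1. L3MBTL3, a reader of methylated lysine, was 4.74-fold higher (3.75 to 6.05) and the ephrin receptor gene EPHA7 4.50-fold (2.58 to 8.41). FGFR1OP, now CEP43, a centrosome protein, stood at 54.0 and 139 CPM, 2.57-fold higher (2.28 to 2.90).

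Members with 0 counts in 1 line were mostly at 0 in SK-UT-1. Of the 300, 21 had 0 counts in SK-UT-1 and 2 (DDX43 and FNDC1) had 0 in SK-LMS-1. Over all genes, 3.59% had 0 counts in SK-UT-1 with 10 or more in SK-LMS-1, and 3.22% the reverse. Besides those above, the 21 included the receptor tyrosine kinase gene ROS1 with 41 counts in SK-LMS-1, the RNA-binding protein gene LIN28B with 30, the oestrogen receptor gene ESR1 with 23 and the matrix gene THBS2 with 57, named after their values were seen. These counts are low, and 0 counts allow up to 3 at this depth, or 0.373 CPM in SK-UT-1 and 0.458 CPM in SK-LMS-1. At the edge of the membership rule, FRK entered with 10 and 0 counts, and the small nucleolar RNA SNORA29 stayed out with 1 and 9.

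**Figure D4:**
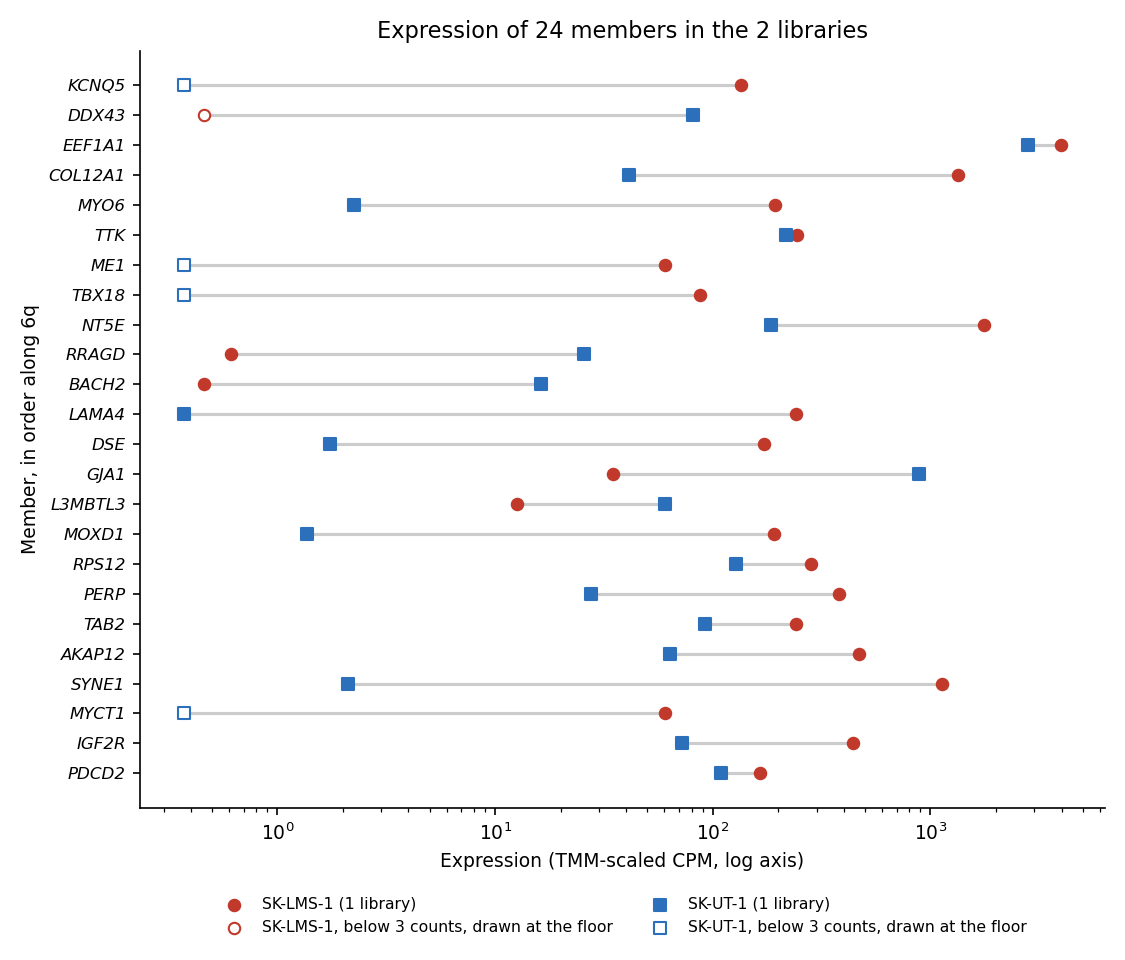
TMM-scaled CPM (horizontal log axis) of 24 members in order along the arm, in SK-LMS-1 (red circles) and SK-UT-1 (blue squares), with open symbols for counts below 3, drawn at the floor. SYNE1 stands at 1132 against 2.11 CPM, GJA1 at 34.8 against 883 CPM, and EEF1A1 within 2-fold.

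By role, the share of members 2-fold or more towards SK-LMS-1 ran from 13.3% to 73.9% over 9 lists, beside 42.7% of all members and 21.1% of all genes. The lists are read against these shares, and nothing is called particular to a list. Matrix, adhesion and cytoskeleton genes had the share of 73.9%. Of 23 measured, 17 were 2-fold or more towards SK-LMS-1, 4 towards the other line (near the 18.3% of all genes), while 2 lay within 2-fold, with a median log2 ratio of 3.03, beside 0.71 over all members and -0.01 over all genes. COL12A1, a collagen that binds fibril surfaces, stood at 1340.3 against 41.3 CPM, 32.5-fold higher (29.1 to 36.4). NT5E and SYNE1, given above, are also on this list. Some places on it are loose, as for the cilium gene LCA5 and the vesicle fusion gene STXBP5, both among the 17. Laminin chains went both ways. LAMA4 was higher in SK-LMS-1, while LAMA2, the chain of muscle laminin, stood at 20.6 and 59.8 CPM, 2.90-fold towards SK-UT-1 (2.39 to 3.54). The membrane-cytoskeleton linker EZR (259 and 309 CPM) and the surface protein CD109 (199 and 216 CPM) were within 2-fold.

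The list of oncogenes and growth signalling had 12 of 22 members 2-fold or more towards SK-LMS-1 and 3 the other way, with a median of 1.15. Towards SK-LMS-1 this was a share of 54.5%, beside 42.7% of all members and 21.1% of all genes. The 3 of 22 towards SK-UT-1 stand beside 18.3% of all genes. TAB2, an adaptor of TAK1 kinase, stood at 241 and 92.1 CPM, 2.62-fold towards SK-LMS-1 (2.40 to 2.86). CITED2, a coactivator that limits the hypoxia response, was 7.98-fold higher (6.28 to 10.3) and the SRC family kinase gene FYN 6.57-fold (5.14 to 8.50). SGK1, a kinase induced by serum and glucocorticoids, was 2.09-fold towards SK-UT-1 (1.86 to 2.35), from 408 and 1046 counts. ADGRG6, an adhesion receptor, was within 2-fold at 260.4 and 429 CPM.

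Among tumour suppressor and commonly deleted genes, 9 of 23 were 2-fold or more towards SK-LMS-1, 3 towards the other line, while 11 lay within 2-fold, with a median of 0.67. Their 39.1% towards SK-LMS-1 was near the 42.7% of all members, beside 21.1% of all genes. Of all genes, 18.3% were 2-fold or more towards SK-UT-1 and 60.5% lay within 2-fold. AKAP12, a scaffold of protein kinase A, stood at 468 and 63.4 CPM, 7.38-fold towards SK-LMS-1 (6.72 to 8.12). IGF2R, which clears insulin-like growth factor 2, was 6.07-fold higher (5.55 to 6.65), at 441 and 72.6 CPM. PERP, a desmosome protein and p53 target, was 13.7-fold higher (11.9 to 15.7). The chromatin remodeller ARID1B (214 and 198 CPM) and the Hippo kinase LATS1 (112 and 144 CPM) lay within 2-fold. No measured member of this list was at 0 counts in either line.

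Of 39 transcription and chromatin genes, 26 lay within 2-fold, 10 were 2-fold or more towards SK-LMS-1 and 3 the other way, with a median of 0.52. The share towards SK-LMS-1, 25.6%, was near the 21.1% of all genes, and 60.5% of all genes lay within 2-fold. The 3 of 39 towards SK-UT-1 stand beside 18.3% of all genes. HIVEP2, a zinc finger factor, was 8.59-fold towards SK-LMS-1 (lower limit 7.40), at 210.3 and 24.5 CPM. PHF10, a subunit of the PBAF remodelling complex, was 4.94-fold higher (4.19 to 5.85). PHF3, which binds RNA polymerase II, stood at 536 and 298 CPM, and QKI, an RNA-binding protein of smooth muscle and glia, at 482 and 335 CPM, both within 2-fold.

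The lists of replication and of translation held the smallest shares beyond 2-fold. In replication, mitosis and DNA repair, 18 of 23 genes lay within 2-fold, 4 were 2-fold or more towards SK-LMS-1 and 1 the other way, with a median of 0.22. The share towards SK-LMS-1, 17.4%, was near the 21.1% of all genes, beside 42.7% of all members. REV3L, the catalytic subunit of DNA polymerase zeta, stood at 356 and 326 CPM, and MDN1, a ribosome assembly ATPase, at 280.1 and 273 CPM. The members of this list beyond 2-fold were TPBG, DOPEY1, CEP85L, CEP162 and DDX43, of which TPBG and DOPEY1 are not known for replication. Members within 2-fold also include genes of other roles, such as MDN1, and CCNC stands on the transcription list too. The list is thus mixed on both sides of 2-fold. In translation and RNA handling, 25 of 30 were within 2-fold, 4 towards SK-LMS-1 and 1 lower there, with a median of 0.27. Over all genes 60.5% were within 2-fold, and 21.1% and 18.3% beyond it in each direction. RPS12, a ribosomal protein gene, was 2.23-fold towards SK-LMS-1 (2.06 to 2.41), from 1858 and 1024 counts.

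Per kb of exon, the most abundant member in both lines was EEF1A1, at 1132 CPM per kb in SK-LMS-1 beside 799 in SK-UT-1. The next in SK-LMS-1 were RPS12 at 564 and NT5E at 431 CPM per kb. In SK-UT-1 they were TCP1, a subunit of the chaperonin that folds actin and tubulin, at 298, and GJA1 at 278. EEF1A1 and RPS12 have processed copies elsewhere in the genome, so their counts are uncertain where reads could fall on those.

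In mitochondria, metabolism and redox, 15 of 40 genes were 2-fold or more towards SK-LMS-1, 2 towards the other line, while 23 lay within 2-fold, with a median of 0.93. The share towards SK-LMS-1 was 37.5%, beside 42.7% of all members and 21.1% of all genes, and the count within 2-fold was near the 60.5% of all genes. The 2 of 40 towards SK-UT-1 stand beside 18.3% of all genes. PGM3, an enzyme of the hexosamine pathway, stood at 159.8 and 68.7 CPM, 2.33-fold towards SK-LMS-1 (2.10 to 2.58). OGFRL1, a receptor-like gene with no settled metabolic role, was 15.7-fold higher (12.4 to 20.1). ACAT2, a thiolase of cholesterol synthesis, stood at 35.9 and 73.9 CPM, 2.06-fold towards SK-UT-1 (1.77 to 2.41). SOD2, the mitochondrial superoxide dismutase, at 169 and 105 CPM, and AMD1, which makes polyamine precursors, at 260.4 and 253 CPM, lay within 2-fold.

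In trafficking, proteolysis and autophagy, 14 of 33 were 2-fold or more towards SK-LMS-1 and 1, RRAGD, towards SK-UT-1, with a median of 0.95. At 42.4%, the share towards SK-LMS-1 was about that of all members (42.7%), beside 21.1% of all genes. Towards SK-UT-1 the share of all genes was 18.3%. SYNJ2, a phosphoinositide phosphatase, was 3.27-fold higher (3.03 to 3.54), at 359 and 109.6 CPM. UFL1, the ligase of the ubiquitin-like protein UFM1, was 2.24-fold higher (2.06 to 2.44) and STXBP5, which regulates vesicle fusion, 2.51-fold (2.27 to 2.77). TMEM30A, a subunit of lipid flippases, stood at 836 and 605 CPM and SENP6, a SUMO protease, at 341 and 301 CPM, both within 2-fold.

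Of 24 inflammation, interferon and immune receptor genes, 8 were 2-fold or more towards SK-LMS-1, 4 towards the other line, while 12 lay within 2-fold, with a median of 0.52. The share towards SK-LMS-1 was 33.3%, beside 42.7% of all members and 21.1% of all genes, and the 4 towards SK-UT-1 were near the 18.3% of all genes. AIM1, now CRYBG1, was 5.54-fold towards SK-LMS-1 (4.98 to 6.19), at 281 and 50.7 CPM. It also stands on the tumour suppressor list, and its place among immune genes is loose. RAET1E, a ligand of the NKG2D receptor of natural killer cells, had 7 and 45 counts, 5.23-fold towards SK-UT-1 (2.34 to 13.8). RAET1E and its close relatives of the ULBP family have similar sequences, so reads could be split between them. CD24, a surface glycoprotein that also has processed copies, was 2.18-fold towards SK-UT-1 (1.43 to 3.41), from 31 and 83 counts.

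**Figure D5:**
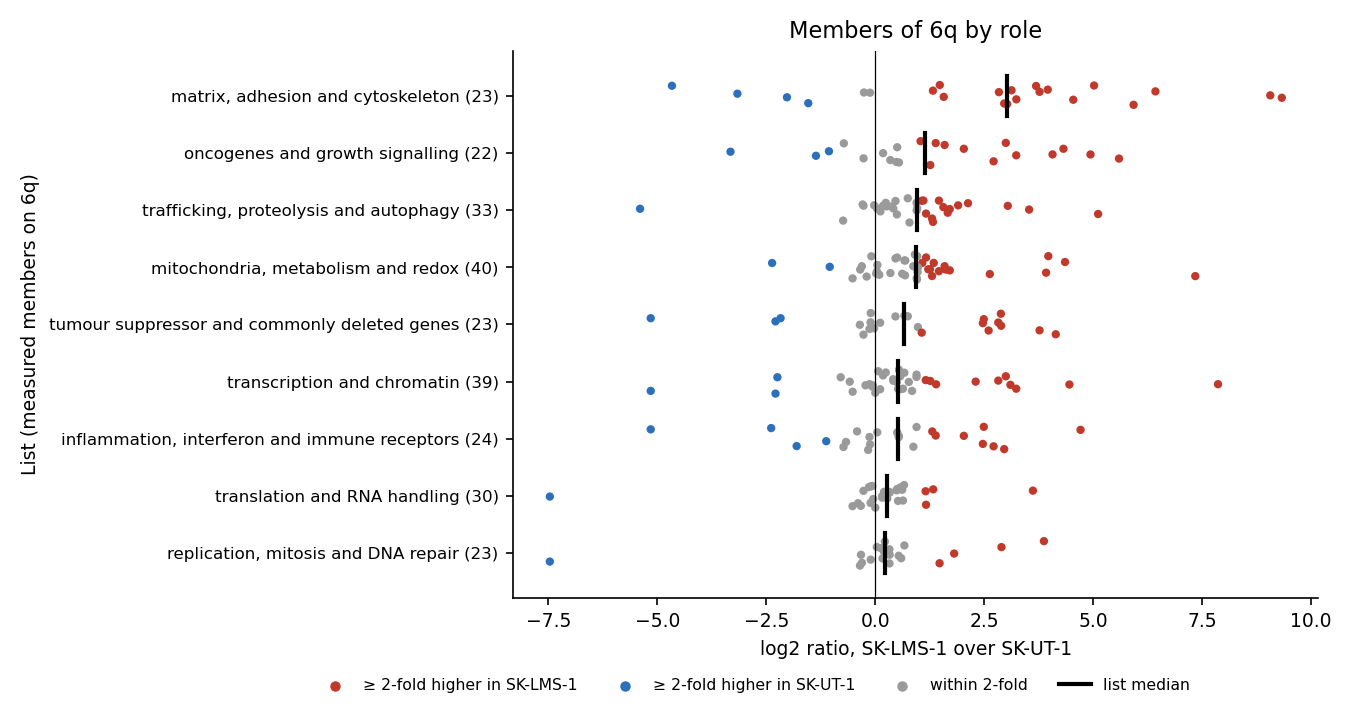
Log2 ratio (horizontal axis) of every measured member of the 9 lists (vertical axis, number of members in parentheses), coloured by the 2-fold rule, with black bars for list medians. The matrix, adhesion and cytoskeleton list has its median at 3.03 and replication, mitosis and DNA repair at 0.22, and all 9 medians lie above 0.

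All 9 list medians were above 0, and some genes stand on more than 1 list. The lists cover 208 of the 300 members, 46 of them on several lists, and 92 members are on none. Members on the plus strand had a median of 1.01 (144 genes) and those on the minus strand 0.57 (156 genes).

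The CG content of gene starts was described for the 263 members with a RefSeq start region. A start was called CG-rich with over 50% G and C and a ratio of observed to expected CG pairs above 0.6. Of members within 2-fold, 112 of 127 (88.2%) had a CG-rich start. Of those 2-fold or more towards SK-LMS-1, 91 of 118 (77.1%) had one, and of those higher in SK-UT-1, 10 of 18 (55.6%). Among the members with 0 counts in SK-UT-1 the share was 9 of 17 (52.9%). The share over all members, 81.0%, lay beside 80.2% over the 10208 measured genes of the table matched by symbol. Members of both directions had a smaller share of CG-rich starts than the members within 2-fold, as a description without a test. Starts over all measured genes were not split by direction, so whether this difference is particular to the arm was not tested.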

How the data were processed

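Total RNA of SK-LMS-1 and SK-UT-1, both under DMSO, was sequenced once per line. The authors deposited raw counts per gene from featureCounts 2.0.1 on hg38, counting fragments over exons with strand setting 1 and each fragment for every gene it overlaps, per the file headers. No aligner is named: it was not given in the sources used here. A further 2 count columns belong to neither sample by their names and were left out. The exon length per gene is also deposited.

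Counts were used as deposited. TMM factors came from edgeR 4.0.16 in R 4.3.3 over the whole table. Counts below 3 were raised to 3 in log2 ratios. Folds use the counts as they are, and a fold against 0 counts uses the floor of 3. Intervals are exact 95% conditional binomial (Clopper-Pearson) intervals and cover counting error only. With 1 library per line there is no p-value. Segments, bins and counting were computed in Python 3.11.15 with NumPy 2.4.6 and SciPy 1.17.1. The 2-fold rule, the intervals and the segments were tested on simulated data. The simulated steps covered more genes than the stretch from LCA5 to NT5E. Arms were split at approximate centromere positions.

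Named genes were the 12 largest ratios per direction at 10 CPM or more, up to 3 members per direction and 2 within 2-fold of each list by CPM, the ends and the 3 most abundant genes of the segment, and the 5 highest per kb in each line. Unnamed loci and antisense, host gene and small RNA symbols were left out. This rule gave 66 genes. The members, the rule and the lists were chosen with earlier results of these data known. RefSeq matched 295 members by current or older symbol and gave start regions for 263 of them. Alternatives were scaling by size factors of DESeq2 1.42.0, by the upper quartile or by library totals, and other filters, floors, size rules, bins and segment settings.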

Additional observations from a re-analysis of the deposited data

How the results depend on the processing

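The median log2 ratio of the members stayed above 0 in all settings tried. It was 0.55 with library totals, 0.57 with the upper quartile and 0.70 with DESeq2 size factors. The median of all genes was then -0.16, -0.14 and -0.01. A scaling moves every log2 ratio alike, so it cannot test the offset from all genes, which stayed at 0.71. Over the 388 genes with 1 count or more, the median of the members was 0.45. In this last setting, genes with 3 counts or fewer in both libraries enter at the floor of 3 in both. Equal counts give a log2 ratio of 0.30 under TMM scaling, as for KHDC1 with 32 counts in each library. Such genes lie above 0 whatever their counts, so the median of 0.45 cannot test their direction. Medians were called moved only outside 0.52 to 0.96, a wide range taken from the ranked ratios of the members around their median. Of 66 summary values under alternatives, 60 moved little (counts within 1.5 times, medians inside that range) and 6 moved. Besides the median of 0.45, these were the count higher in SK-UT-1, 11 at 10 counts in both libraries and 14 where the whole interval lay beyond 2-fold (22 otherwise), the count higher in SK-LMS-1, 81 by a 4-fold rule (128 otherwise), the bins with a median above 0, 10 of 10 at 10 Mb (18 of 18 at 5 Mb), and the segments, 5 with the penalty of 1 log(n) (1 otherwise). The cause was not tested, other than that fewer genes pass stricter rules and wider bins are fewer. For the median of 0.45, the share of genes with a ratio set by the floor was not counted. Of the 66 genes named by rule, none changed its side of 2-fold under another scaling, and 5 within 2-fold (AMD1, ARID1B, MDN1, PTP4A1 and REV3L) changed sign with library totals or the upper quartile. Depth limits the genes under 10 counts in 1 line most. No paired analysis was possible because each line has 1 library.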
